A study of Mus musculus with 10 samples.

Results

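Chemokine ligands are the small secreted proteins that guide leukocytes into a tissue. They were described here as the 42 genes annotated as protein-coding in GENCODE, of 55401 genes listed in the raw counts, whose mouse symbol is Ccl, Cxcl, Cx3cl1 or Xcl1 (Ccl and Cxcl followed by a number and, for some Ccl genes, a letter). RNA came from 10 subcutaneous tumors of KPN1.1, a mouse lung adenocarcinoma cell line, grown in the flank of obese male C57BL/6J mice injected at 7 to 17 weeks of age. After tumors became palpable, 5 mice received liraglutide, a glucagon-like peptide-1 receptor agonist, by daily intraperitoneal injection at 0.2 μg/g body weight, and 5 received the PBS vehicle. All tumors were harvested between days 19 and 22 from mice with diet-induced obesity, all carried the same line, and a frozen fragment gave total RNA that was depleted of ribosomal RNA. The model is limited to a single implanted line growing under the skin, so the fragments hold host cells together with tumor cells.

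Chemokines are named by the spacing of their first cysteines (CC, CXC, CX3C and XC) and act on G protein-coupled receptors whose expression decides which leukocytes respond. Interferon-induced Cxcl9, Cxcl10 and Cxcl11 bind CXCR3 on activated T cells and natural killer cells, Ccl2, Ccl7 and Ccl12 bind CCR2 on monocytes, and Cxcl1, Cxcl2, Cxcl3 and Cxcl5 bind CXCR2 on neutrophils. Cxcl11 is disrupted in C57BL/6 mice and RefSeq lists it as a transcribed pseudogene, so its values here are of RNA alone. In lung tumors the first set is known for T cell infiltration, and the other sets are known for recruiting macrophages and suppressive myeloid cells. Each member was placed in a single group, by a cell that it is known to attract or a site where it acts, although some attract other cells too. The groups held 8 T cell, 9 monocyte, 5 neutrophil, 9 lymphoid homing, 3 eosinophil, 6 skin and mucosa, and 2 other ligands.

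Promoters were searched for the letters of control elements that are known to drive chemokine genes. RefSeq promoters on GRCm38.p6, from 250 bases before to 50 bases after the transcription start, were listed for 28 of the 42 members and not for Ccl2, Ccl4, Ccl5, Ccl7, Ccl11, Ccl21e, Ccl21f, Ccl24, Ccl26, Ccl27al, Cxcl5, Cxcl11, Cxcl16 or Cxcl17. They were searched on both strands for a gamma-activated site (TTCNNNGAA), an interferon-stimulated response element core (GAAANNGAAA) and a kappaB site (GGGNNNTTCC, bound by NF-kappaB). The promoters of 2 members held the first, 3 the second and 7 the third, and over all 32851 promoters of the same length the shares were 8.3%, 3.44% and 5.56%. A member was counted once for a match in any of its promoters (34 in all), while these shares are of single promoters, so the units differ. Below are a pair of CXCR3 ligands, chosen because they are the most abundant ligands of that receptor here, and a pair of CXCR2 ligands, chosen because they had the most negative differences among the neutrophil ligands, with the matches in capitals (overlapping matches run together).

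Cxcl9: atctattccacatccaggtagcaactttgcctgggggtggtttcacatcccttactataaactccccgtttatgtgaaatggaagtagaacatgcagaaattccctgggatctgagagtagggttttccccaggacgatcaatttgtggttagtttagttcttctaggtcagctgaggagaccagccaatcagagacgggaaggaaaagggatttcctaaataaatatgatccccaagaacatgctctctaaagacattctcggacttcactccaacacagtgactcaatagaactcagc

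Cxcl10: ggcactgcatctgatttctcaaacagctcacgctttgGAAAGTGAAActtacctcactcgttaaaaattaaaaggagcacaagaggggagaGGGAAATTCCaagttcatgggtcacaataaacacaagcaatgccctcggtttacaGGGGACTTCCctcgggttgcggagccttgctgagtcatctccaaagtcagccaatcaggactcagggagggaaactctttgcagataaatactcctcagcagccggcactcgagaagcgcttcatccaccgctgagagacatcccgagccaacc

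Cxcl1: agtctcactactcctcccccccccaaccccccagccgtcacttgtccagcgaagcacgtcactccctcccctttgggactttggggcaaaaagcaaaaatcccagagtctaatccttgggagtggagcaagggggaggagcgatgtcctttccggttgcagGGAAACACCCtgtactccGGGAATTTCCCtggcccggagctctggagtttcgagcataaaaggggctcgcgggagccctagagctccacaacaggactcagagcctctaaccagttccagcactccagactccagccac

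Cxcl2: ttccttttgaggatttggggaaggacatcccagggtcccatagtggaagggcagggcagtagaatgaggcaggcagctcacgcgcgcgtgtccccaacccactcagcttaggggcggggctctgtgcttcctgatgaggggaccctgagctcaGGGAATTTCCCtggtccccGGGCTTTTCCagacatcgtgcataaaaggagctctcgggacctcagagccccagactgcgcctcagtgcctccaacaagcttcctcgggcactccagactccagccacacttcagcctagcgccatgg

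These windows were chr5:92328030-92328329 (minus strand), chr5:92348840-92349139 (minus), chr5:90890995-90891294 (plus) and chr5:90903649-90903948 (plus). The Cxcl10 window held 1 response element core and 2 kappaB matches, the Cxcl1 and Cxcl2 windows held 3 kappaB matches each, of which a pair overlapped, and the Cxcl9 window held none of these letters. Cxcl3, beside them on chromosome 5, also held 3 kappaB matches. A match describes letters in the window and is not evidence of binding.

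Of the 42 ligands, 28 passed the filter on low counts and were among the 17464 genes tested. The other 14 were accounted for by their counts. No read was assigned to Ccl19, Ccl21b, Ccl21d, Ccl21e, Ccl21f, Ccl26, Ccl27al or Ccl27b in any tumor, where 3 counts, taken as the limit that 0 allows, come to between 0.207 and 0.315 CPM (counts scaled to library size). Ccl1 had 0 to 10 counts per tumor, Ccl20 3 to 28, Ccl21a 1 to 11, Cxcl13 1 to 27, Ccl28 2 to 15 and Xcl1 0 to 18. Apart from Ccl25, all lymphoid homing ligands, which direct lymphocytes and dendritic cells into lymphoid tissue, were among these 14. Ccl21 and Ccl27 exist in near-identical copies, between which the counting could divide or discard reads, so their low values are uncertain.

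Per kilobase of joined exons, Cxcl9 was the most abundant ligand in the tumors, with a mean of 51.9 CPM per kb over the 10 tumors. It was followed by Ccl8 at 34.3, Ccl6 at 25.3, Cx3cl1 at 16.4 and Cxcl10 at 9.77 CPM per kb. With the length of the canonical transcript, Cxcl9 was at 54.2, Ccl8 at 34.3, Ccl6 at 32.0, Cxcl10 at 20.0 and Cx3cl1 at 19.7 CPM per kb, so that the last pair changed places. The 5 neutrophil ligands lay between 0.406 CPM per kb (Cxcl3) and 3.69 CPM per kb (Cxcl15) by joined exons. Ccl25 was lowest of the 28 at 0.305 CPM per kb, but its joined exons are long and with the canonical transcript it was at 4.23 CPM per kb.

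**Figure D1:**
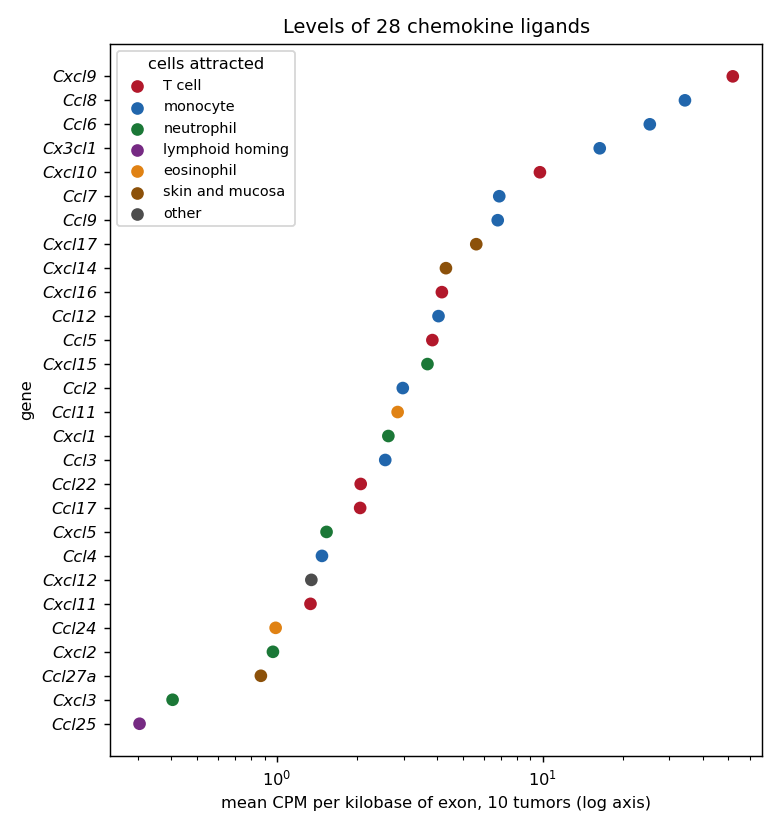
Mean level of the 28 tested chemokine ligands over 10 tumors, in CPM per kilobase of joined exons on a log axis, with points colored by the cells that each group attracts. Cxcl9 leads at 51.9 CPM per kb and 3 monocyte ligands follow, while the neutrophil ligands stay at or below 3.69 CPM per kb.

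The first question was whether liraglutide altered these ligands. No ligand passed the test. With edgeR's quasi-likelihood test, 0 of 28 ligands had a Benjamini-Hochberg adjusted p under 0.05, where 0 of 17464 genes did (0.0%), and the smallest adjusted p among the ligands was 0.482 (Cxcl1). At an unadjusted p under 0.05, 0 ligands were higher and 2 were lower with liraglutide (Cxcl1 and Ccl17), against 3.97% of all tested genes higher and 5.62% lower. Without vehicle tumor 5, 3 ligands were higher (Cx3cl1, Cxcl9 and Cxcl10) and 3 lower (Ccl11, Ccl17 and Cxcl1), against 6.1% and 7.44% of genes. With library size alone as the scaling, 990 genes were higher and 619 lower at that level, against 694 and 981 with the TMM scaling used here, and the median log2 fold change of all genes moved from -0.02 to 0.04. In no ligand were the vehicle and liraglutide tumors without overlap, which was so for 1.49% of tested genes. DESeq2 called 1.1% of the 4087 genes to which it gave an adjusted p, and 0 ligands, but only Cxcl9 and Cx3cl1 of the 28 were given one, and its unadjusted p was under 0.05 for the same 2 ligands, Ccl17 and Cxcl1, and for 6.13% of all genes. The median log2 fold change was 0.07 over the 28 ligands, with 15 positive and 13 negative, and -0.02 over all tested genes.

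**Figure D2:**
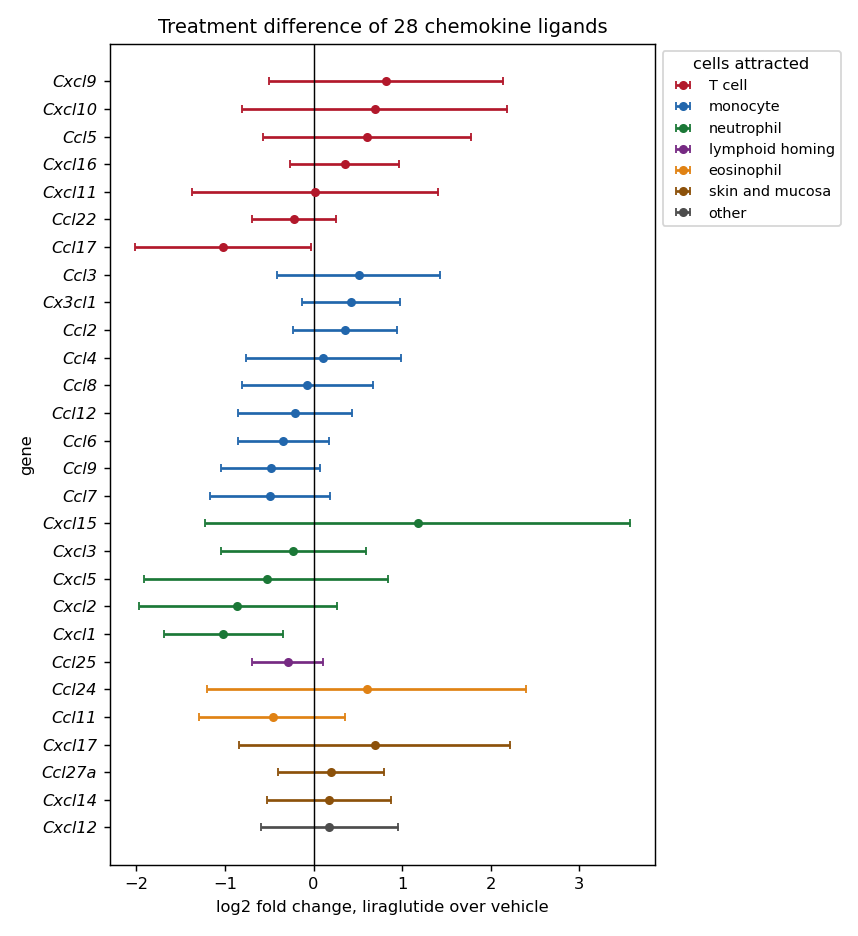
Log2 fold change of liraglutide over vehicle for the 28 tested chemokine ligands, with bars for the 95% confidence interval from the edgeR fit, grouped and colored by the cells attracted. All intervals but those of Ccl17 and Cxcl1 span 0, and that of Cxcl15 is the widest, from -1.23 to 3.58.

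The T cell ligands had higher means with liraglutide for 5 of 7 tested members, and the median log2 fold change of the group was 0.35. Cxcl9 lies on chromosome 5 (92469206 to 92475945, minus strand, GRCm39), next to Cxcl10 (92494497 to 92496748) and Cxcl11 (92507403 to 92513344). In vehicle tumors 1 to 5, Cxcl9 stood at 21.4, 43.0, 63.5, 173 and 266 CPM, and in liraglutide tumors 1 to 5 at 92.9, 135, 201, 271 and 302 CPM. All 5 liraglutide tumors exceeded vehicle tumors 1, 2 and 3, while vehicle tumors 4 and 5 lay inside the liraglutide range. The means were 114 ± 104 CPM (SD, n = 5) and 200 ± 88.3 CPM (SD, n = 5). The log2 fold change was 0.82 (standard error 0.60, 95% confidence interval -0.50 to 2.14), with an adjusted p of 0.660 from edgeR's quasi-likelihood test. A two-sided exact permutation test of log2 CPM gave p = 0.119, where 5 against 5 tumors allow 0.00794 at the least. Without vehicle tumor 5 the log2 fold change of Cxcl9 was 1.42 (edgeR, unadjusted p = 0.0303) and without vehicle tumor 1 it was 0.55 (unadjusted p = 0.316), with an adjusted p of at least 0.338 over the tumors left out in turn.

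Cxcl10, the ligand that interferon induces in many cell types, stood at 3.45, 4.06, 7.24, 19.2 and 50.1 CPM in vehicle tumors 1 to 5 and at 12.9, 16.0, 24.5, 44.9 and 37.7 CPM in liraglutide tumors 1 to 5. Vehicle tumor 5 held the highest value of all 10, and vehicle tumors 1, 2 and 3 the lowest values. Its log2 fold change was 0.69 (standard error 0.68, 95% confidence interval -0.81 to 2.19, edgeR adjusted p = 0.739), with 1.68 without vehicle tumor 5 (unadjusted p = 0.0124) and 0.42 without vehicle tumor 1 (unadjusted p = 0.527). Cxcl11 had a log2 fold change of 0.02 (standard error 0.63, edgeR adjusted p = 0.994), with vehicle tumors from 1.42 to 13 CPM and liraglutide tumors from 2.51 to 8.69 CPM, and its sign turned in 5 of the 10 fits that left out a tumor. Ccl5, which T cells and macrophages secrete, stood at 1.73, 1.42, 1.26, 5.10 and 6.11 CPM with vehicle and at 2.07, 2.12, 8.49, 5.86 and 5.36 CPM with liraglutide. Every liraglutide tumor exceeded vehicle tumors 1, 2 and 3 in Ccl5, and liraglutide tumor 3 was the highest. Its log2 fold change was 0.60 (standard error 0.54, edgeR adjusted p = 0.71), with 0.30 without liraglutide tumor 3 and 1.00 without vehicle tumor 5. Cxcl16, a membrane-anchored ligand of CXCR6, had means of 18.8 ± 8.02 CPM (SD, n = 5) and 24.0 ± 6.08 CPM (SD, n = 5) and a log2 fold change of 0.35 (standard error 0.28, edgeR adjusted p = 0.687).

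The CCR4 ligands Ccl17 and Ccl22, known for drawing regulatory and type 2 helper T cells, had negative log2 fold changes. Ccl17 (chromosome 8, 95534358 to 95538664, GRCm39) stood at 2.49, 1.82, 2.62, 1.92 and 0.326 CPM with vehicle and at 0.777, 1.39, 0.834, 0.567 and 0.893 CPM with liraglutide. Vehicle tumors 1 to 4 exceeded all liraglutide tumors, and vehicle tumor 5 was the lowest of the 10. The log2 fold change was -1.02 (standard error 0.45, edgeR unadjusted p = 0.0439, adjusted p = 0.515), and the exact permutation test of log2 CPM gave p = 0.183. Only 4 to 36 reads per tumor stood behind these values. Without vehicle tumor 5 the log2 fold change was -1.29 with an unadjusted p of 0.000987, and without liraglutide tumor 2 it was -1.23 with one of 0.0307. The unadjusted p was above 0.05 when any 1 of the other 8 tumors was left out, with a log2 fold change of -0.87 and p of 0.102 without vehicle tumor 3, and limma-voom gave -0.77 with one of 0.19. The adjusted p was at least 0.303 in the 10 fits that left out a tumor. Ccl22 had means of 5.43 ± 0.871 CPM (SD, n = 5) and 4.67 ± 1.13 CPM (SD, n = 5), with a log2 fold change of -0.22 (standard error 0.21, edgeR adjusted p = 0.736).

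T cell markers were measured beside the T cell ligands. The 7 markers (Cd3d, Cd3e, Cd3g, Cd4, Cd8a, Cd8b1 and Trac) were all detected in every tumor and all had positive log2 fold changes, with a median of 0.75 and 0 of 7 called, and their summed level lay between 5.25 and 24.8 CPM with vehicle and between 8.55 and 33.8 CPM with liraglutide. The 4 skeletal muscle markers (Ckm, Acta1, Myh4 and Tnnt3) also all had positive log2 fold changes, with a median of 0.83 and 0 called, and summed to 25.1 to 215 CPM with vehicle (mean 80.7) and 50.9 to 264 CPM with liraglutide (mean 155). The part of either list in the treatment difference of the ligands was not tested. In bulk tumor RNA, more cells of a type and more RNA per cell cannot be told apart.

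The monocyte ligands were split, with 4 of 9 log2 fold changes positive, 5 negative and a median of -0.07. Cx3cl1, a membrane-bound ligand for CX3CR1 on patrolling monocytes and macrophages, stood at 39.2, 32.2, 56.6, 60.3 and 90.2 CPM with vehicle and at 77.2, 50.6, 81.5, 78.8 and 85.5 CPM with liraglutide. Of the liraglutide tumors 4 exceeded all vehicle tumors but vehicle tumor 5, which was the highest of the 10. Its log2 fold change was 0.42 (standard error 0.25, 95% confidence interval -0.13 to 0.98, edgeR adjusted p = 0.601). The CCR1 ligand Ccl6 stood at 27.8, 46.4, 75.0, 65.1 and 42.9 CPM with vehicle and at 45.0, 31.8, 38.4, 44.5 and 43.4 CPM with liraglutide, so that the liraglutide tumors lay inside the vehicle range. Its log2 fold change was -0.34 (standard error 0.23, edgeR adjusted p = 0.639). Ccl9, its neighbor on chromosome 11 and also a CCR1 ligand, stood at 13.7, 22.5, 38.2, 29.0 and 19.7 CPM with vehicle and at 15.5, 12.9, 17.9, 19.3 and 22.4 CPM with liraglutide. It had the smallest unadjusted p of the group (0.0832 by edgeR, adjusted p = 0.562), at a log2 fold change of -0.48 with a standard error of 0.25.

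The CCR2 ligands did not share a sign. Ccl2, the main monocyte attractant, stood at 1.80, 3.24, 4.09, 2.43 and 3.34 CPM with vehicle and at 4.41, 2.61, 3.49, 5.20 and 3.28 CPM with liraglutide. Liraglutide tumors 1 and 4 exceeded every vehicle tumor, and the other 3 lay inside the vehicle range. Its log2 fold change was 0.35 (standard error 0.27, edgeR adjusted p = 0.667), against -0.49 for Ccl7 (standard error 0.31, edgeR adjusted p = 0.611) and -0.21 for Ccl12 (standard error 0.29, edgeR adjusted p = 0.821). The summed level of these 3 CCR2 ligands lay between 8.29 and 17.2 CPM with vehicle and between 7.02 and 14.5 CPM with liraglutide. Ccl3 and Ccl4, which also draw T cells, had log2 fold changes of 0.51 (standard error 0.42, edgeR adjusted p = 0.689) and 0.11 (standard error 0.40, edgeR adjusted p = 0.938). Ccl8, the second ligand in level per kb, had a log2 fold change of -0.07 (standard error 0.34, edgeR adjusted p = 0.955), with values from 11.5 to 27.2 CPM with vehicle and from 10.6 to 26.4 CPM with liraglutide. Of the 8 macrophage and monocyte markers 7 were tested, all with log2 fold changes between 0.13 and 0.30 and 0 called, and their sum lay between 239 and 434 CPM with vehicle and between 258 and 510 CPM with liraglutide.

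The neutrophil ligands had negative log2 fold changes for 4 of 5 members, with a median of -0.53, and -0.70 without Cxcl15. Cxcl1 (chromosome 5, 91039094 to 91040974, plus strand, GRCm39), which had the smallest p of the 28 ligands, stood at 7.53, 11.4, 6.51, 4.35 and 3.34 CPM with vehicle and at 3.20, 3.43, 2.50, 3.68 and 3.50 CPM with liraglutide. Vehicle tumors 1 to 4 exceeded all liraglutide tumors, and vehicle tumor 5 lay inside the liraglutide range. The means were 6.62 ± 3.13 CPM (SD, n = 5) and 3.26 ± 0.459 CPM (SD, n = 5), so that the spread was wider with vehicle. The log2 fold change was -1.02 (standard error 0.31, 95% confidence interval -1.69 to -0.34), with an unadjusted p of 0.0066 and an adjusted p of 0.482 from edgeR's quasi-likelihood test. The exact permutation test of log2 CPM gave p = 0.0317, unadjusted. In the 10 fits that left out a tumor, the log2 fold change of Cxcl1 lay between -1.18 and -0.74 and its unadjusted p at or below 0.0184, with adjusted p of at least 0.184.

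Cxcl2, whose gene lies beside Cxcl1, had a log2 fold change of -0.86 (standard error 0.51, edgeR adjusted p = 0.598), with vehicle tumors from 1.00 to 4.66 CPM and liraglutide tumors from 0.682 to 2.83 CPM. Cxcl3 was at -0.23 (standard error 0.37, edgeR adjusted p = 0.849). Cxcl5, which epithelial cells make, was at -0.53 (standard error 0.63, edgeR adjusted p = 0.779), with values from 0.815 to 8.31 CPM in vehicle tumors and from 0.607 to 4.16 CPM in liraglutide tumors. Vehicle tumor 2 was the highest of the 10 for Cxcl1, Cxcl2 and Cxcl5. The sum of all 5 neutrophil ligands had a mean of 19 CPM under vehicle (SD 9.11, n = 5) and of 19.3 CPM under liraglutide (SD 7.94, n = 5). Without Cxcl15, a subset taken after seeing the data, Cxcl1, Cxcl2, Cxcl3 and Cxcl5 came to a mean of 14.2 CPM (SD 7.55, n = 5) under vehicle and of 8.38 CPM (SD 2.39, n = 5) under liraglutide.

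Cxcl15, known as lungkine for its expression in lung epithelium, was the exception within the neutrophil group. It stood at 0.207, 0.203, 1.36, 20.9 and 1.30 CPM with vehicle and at 0.777, 13.8, 12.2, 7.56 and 20.1 CPM with liraglutide. Vehicle tumor 4 was the highest of all, and 4 of 5 liraglutide tumors exceeded the other 4 vehicle tumors. The log2 fold change was 1.18 (standard error 1.09, edgeR adjusted p = 0.725), and 3.85 without vehicle tumor 4 (unadjusted p = 0.00127, adjusted p = 0.164). With limma-voom it was 2.67 (adjusted p = 0.521). Sftpc, the surfactant protein of alveolar type 2 cells, stood in the same tumors at 0.0691, 0, 0.105, 4.85 and 0.733 CPM with vehicle and at 0.0864, 2.94, 4.17, 1.04 and 5.95 CPM with liraglutide. The 5 tumors with the most Cxcl15 were also the 5 with the most Sftpc. This pair was not among the 10 listed pairs and was noted after its values were seen. Of those 5 tumors, liraglutide tumor 2 had 52.2 CPM of the lung lineage factor Nkx2-1, below 66.6 CPM in vehicle tumor 5. The rest of them led in Nkx2-1. Epcam, listed with the same lung markers, was highest in vehicle tumor 1, at 4.63 CPM.

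Of the 7 neutrophil markers, Csf3r was at 3.18 to 6.82 CPM in every tumor, while Retnlg and Camp had at most 6 and 8 counts. Ly6g and the receptor Cxcr1 had 0 counts in all 10 tumors, Cxcr2 had 2 to 19 counts and was not tested, and the markers summed to between 5.69 and 12.4 CPM with vehicle and between 7.0 and 13.5 CPM with liraglutide. Of the 4 markers tested 3 had positive log2 fold changes, and Mmp8 was at 0.86 (edgeR unadjusted p = 0.0453, adjusted p = 0.515). Keratinocyte markers set apart liraglutide tumors 2, 4 and 5, whose sum of Krt5, Krt14, Krt10 and Krt1 came to 200, 76.2 and 49.9 CPM, while the other 7 tumors lay between 6.65 and 17.6 CPM. Without those 3 tumors the median log2 fold change of the neutrophil group was -1.19, that of the T cell group 0.17 and that of the monocyte group 0.07, with 0 of 30 ligands called and Cxcl1 alone at an unadjusted p under 0.05, as were 4.65% of all genes in that fit. That fit kept only liraglutide tumors 1 and 3. It also left out the Cxcl15 values of 13.8, 7.56 and 20.1 CPM in liraglutide tumors 2, 4 and 5, so its medians cannot be read as the part of skin RNA. The part of the skin RNA in the ligand values was not tested.

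**Figure D3:**
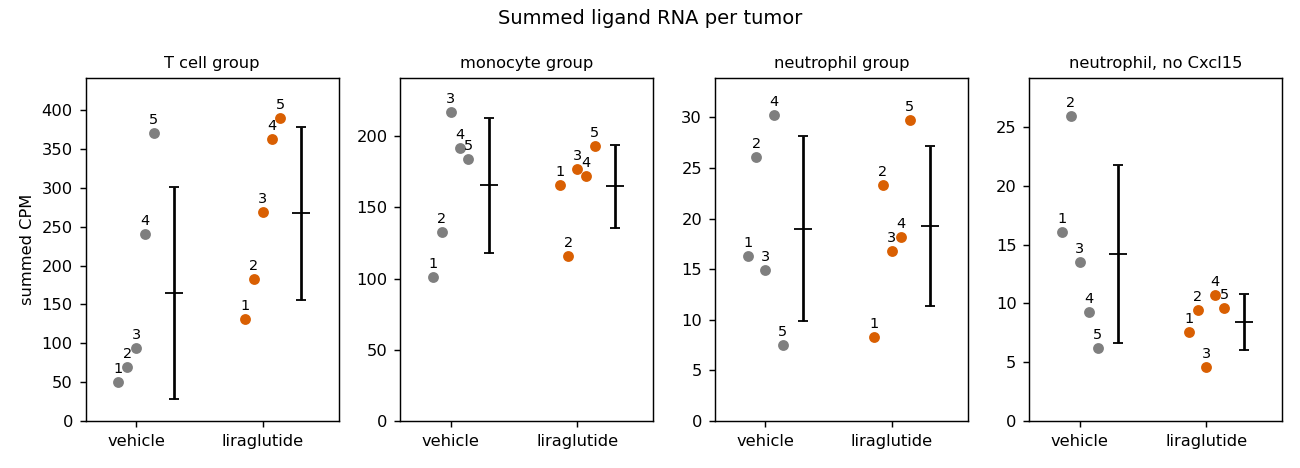
Summed CPM of the T cell ligands, monocyte ligands, neutrophil ligands and neutrophil ligands without Cxcl15 in each of 5 vehicle and 5 liraglutide tumors, with tumor numbers beside the points and the mean ± SD of each group as a bar to the right. The T cell sum spans 49.9 to 370 CPM with vehicle and 131 to 390 CPM with liraglutide, and without Cxcl15 the neutrophil sum spans 6.19 to 25.9 CPM and 4.62 to 10.7 CPM.

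Among the other ligands, the 3 higher ones with the smallest unadjusted p were Cxcl17, Ccl27a and Ccl24, and the lower ones were Ccl25 and Ccl11, the only tested ones below 0. Cxcl17, a mucosal ligand, had a log2 fold change of 0.69 (standard error 0.70, edgeR adjusted p = 0.745), with 0.16 without liraglutide tumor 5 and 1.13 without vehicle tumor 5. Ccl27a, which keratinocytes make, was at 0.20 (standard error 0.27, edgeR adjusted p = 0.812), and Ccl24, an eosinophil attractant, was at 0.60 (standard error 0.82, edgeR adjusted p = 0.814), with 0.05 without liraglutide tumor 2 and 1.23 without vehicle tumor 3. Ccl25 was at -0.29 (standard error 0.18, edgeR adjusted p = 0.609) and Ccl11, the eotaxin that fibroblasts make, at -0.46 (standard error 0.38, edgeR adjusted p = 0.688). Cxcl12, the stromal ligand of CXCR4, stood at 12.4, 9.43, 19.2, 6.36 and 5.38 CPM with vehicle and at 6.48, 10.3, 13.3, 13.4 and 16.4 CPM with liraglutide. Its groups overlapped widely, with a log2 fold change of 0.18 and a 95% confidence interval from -0.59 to 0.95. Cxcl14 was at 0.18, with liraglutide tumors between 14.3 and 17.4 CPM and vehicle tumors 1 to 5 at 12.5, 13.7, 28.1, 7.28 and 8.15 CPM. Vehicle tumor 3 was above all liraglutide tumors and the other vehicle tumors below them, and without it Cxcl14 had an unadjusted p under 0.05. The eosinophil marker Epx had 0 counts in all 10 tumors.

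The second question was how the ligands varied from tumor to tumor. They varied more within a treatment group than most genes did. The median within-group SD of log2 CPM was 0.57 over the 28 ligands and 0.33 over all tested genes, and 26 of the 28 lay above the median of all genes. Low counts add to such an SD, and some of the ligands had few reads. Cxcl15 (SD 2.09), Ccl24 (1.43), Cxcl17 (1.31), Cxcl10 (1.25), Cxcl9 (1.16), Cxcl11 (1.12) and Cxcl5 (1.12) varied most, and Ccl22 (0.32) and Ccl25 (0.21) least. Cxcl9, with 310 to 4060 reads per tumor, had an SD larger than that of 97.3% of tested genes.

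**Figure D4:**
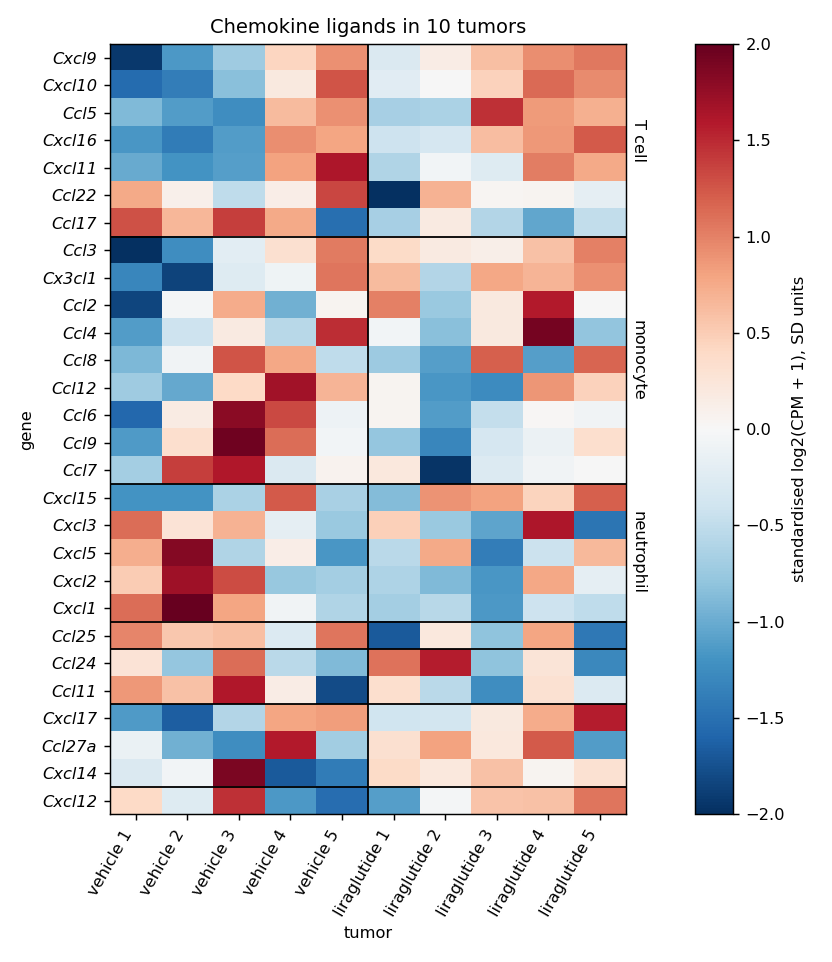
The 28 tested ligands (rows, by group) in 10 tumors (columns), each as log2(CPM + 1) standardised over the tumors, from blue at -2 SD to red at 2 SD. Cxcl9, Cxcl10, Ccl5, Cxcl16 and Cxcl11 are low in vehicle tumors 1, 2 and 3 and high in vehicle tumors 4 and 5 and liraglutide tumors 4 and 5, and Cxcl1 and Cxcl2 are high in vehicle tumors 1, 2 and 3.

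The 3 groups spread by different amounts. From the lowest to the highest tumor, the T cell ligands summed to 49.9 to 390 CPM, a 7.80-fold range, the monocyte ligands to 101 to 217 CPM, a 2.14-fold range, and the neutrophil ligands to 7.49 to 30.2 CPM, a 4.03-fold range. Without Cxcl9 the T cell ligands summed to 26.2 to 104 CPM, a 3.97-fold range. The composition of the ligand RNA moved accordingly. T cell ligands made up between 24.0% and 62.1% of all ligand CPM, monocyte ligands between 28.5% and 55.2%, and neutrophil ligands between 1.26% and 9.88%, and Cxcl9 alone between 10.3% and 45.2%. The sum of the CXCR3 ligands, of which Cxcl11 was between 1.46% and 6.49%, over the sum of Cxcl1, Cxcl2, Cxcl3 and Cxcl5 was 1.65, 1.87, 5.34, 21.5 and 53.2 in vehicle tumors 1 to 5 and 14.4, 16.3, 49.4, 30.4 and 36.1 in liraglutide tumors 1 to 5. Vehicle tumors 1, 2 and 3 thus lay below all liraglutide tumors, and vehicle tumor 5 above them. This divisor left out Cxcl15 after seeing the data. Over all 5 neutrophil ligands the ratio was 1.63, 1.86, 4.85, 6.62 and 44.0 with vehicle and 13.1, 6.65, 13.6, 17.8 and 11.7 with liraglutide.

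Across the 10 tumors, each of 10 listed ligand and marker pairs was compared on log2 CPM. Cxcl9 and Cd3e, a subunit of the T cell receptor complex, had a Pearson r of 0.943 (permutation test, p = 8e-05, adjusted over 10 pairs 0.000533) and a Spearman rho of 0.903 (permutation test, p = 0.00091, adjusted 0.00455). For Cxcl10 and Cd3e r was 0.929 (permutation test, p = 0.00016, adjusted 0.000533) and rho 0.879 (p = 0.0017, adjusted 0.00567), and for Ccl5 and Cd3e r was 0.942 (permutation test, p = 0.00014, adjusted 0.000533) and rho 0.927 (p = 0.0004, adjusted 0.004). Without vehicle tumors 1 and 3, the farthest from the median of Cd3e, r was 0.944, 0.901 and 0.957, and with the treatment means subtracted it was 0.921, 0.906 and 0.956. No correlation was computed within either treatment, where there were 5 tumors. Cd3e rested on 4 to 59 reads per tumor. Ptprc, the marker of all leukocytes, gave r of 0.872 with Cxcl9, 0.877 with Cxcl10 and 0.938 with Ccl5, with rho of 0.842, 0.818 and 0.697 (permutation test, adjusted p = 0.0293, 0.0293 and 0.101), and the difference between these markers was not tested. All values of a tumor come from the same library.

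**Figure D5:**
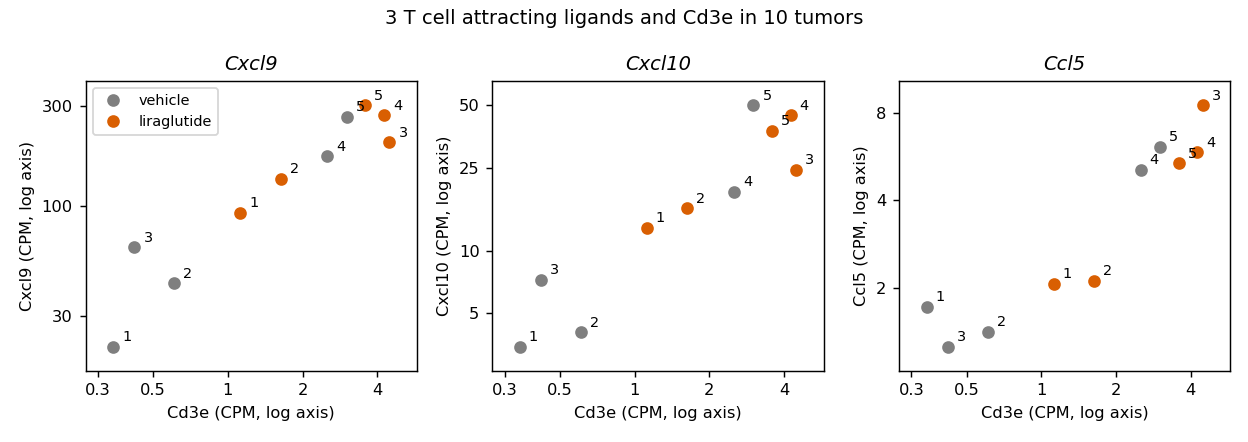
Cxcl9, Cxcl10 and Ccl5 (vertical axes, CPM, log scale) against Cd3e (horizontal axes, CPM, log scale) in 5 vehicle tumors (grey) and 5 liraglutide tumors (orange), numbered by tumor. Vehicle tumors 1, 2 and 3 are at the lower left in all panels and the other tumors of both groups lie above and to the right, with r of 0.943, 0.929 and 0.942.

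The other 7 pairs did not pass the threshold. Ccl2 and Ccl7 had r of 0.11 and 0.198 with the macrophage marker Adgre1 (permutation test, adjusted p = 0.847 and 0.785) and rho of 0.139 and 0.0303. Cxcl1, Cxcl2 and Cxcl5 had r of -0.22, 0.0678 and -0.337 with the neutrophil receptor Csf3r (permutation test, adjusted p = 0.785, 0.852 and 0.68) and rho of -0.236, 0.115 and -0.261. Cxcl12 and the fibroblast collagen Col1a1 had r of 0.514 and rho of 0.43 (permutation test, adjusted p = 0.325 and 0.545), and r was -0.223 without vehicle tumors 4 and 5. Ccl27a and Krt14 had r of 0.174 and rho of 0.176 (permutation test, adjusted p = 0.785 and 0.843). Without the pair of tumors farthest from the median of its marker, r was -0.056 for Ccl2, -0.123 for Ccl7 and 0.0374 for Cxcl1. It was then 0.413 for Cxcl2, 0.0156 for Cxcl5 and -0.412 for Ccl27a.

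Receptors and regulators of the ligands were counted from listed genes. Of 18 chemokine receptors 10 were tested and 0 called, with 4 log2 fold changes positive and 6 negative. Cx3cr1, the receptor of Cx3cl1, was at 0.87 (standard error 0.36, edgeR unadjusted p = 0.0332, adjusted p = 0.508), with vehicle tumors from 4.30 to 10.8 CPM and liraglutide tumors from 7.0 to 21.1 CPM. Cxcr6, the receptor of Cxcl16, was at 0.35 (edgeR adjusted p = 0.726) and Ccr2 at 0.01 (edgeR adjusted p = 0.987). Cxcr3 had 0 to 12 counts and Ccr4 0 to 5 counts per tumor, and neither was tested. Of 6 atypical receptors and proteases, which scavenge or trim chemokines, 4 were tested and 0 called, with log2 fold changes from -0.37 (Ackr3) to 0.39 (Ccrl2).

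Of 20 upstream cytokines and transcription factors 16 were tested and 0 called, with 9 log2 fold changes positive and 7 negative. Csf2, which encodes the growth factor GM-CSF, was at -1.18 (standard error 0.37, edgeR unadjusted p = 0.00781, adjusted p = 0.482), with vehicle tumors from 1.26 to 4.09 CPM and liraglutide tumors from 0.691 to 1.55 CPM. Irf1, through which interferon-gamma induces Cxcl9, was at 0.60 (edgeR adjusted p = 0.605), while Ifng itself had 0 to 11 counts per tumor. Nfkb1 and Rela, the NF-kappaB subunits, were at -0.05 and 0.12 (edgeR adjusted p = 0.877 and 0.654).

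Total counts lay between 9927942 and 14480593 per tumor. The cytokeratins Krt8 and Krt18 of the carcinoma were between 1040 and 3290 CPM in all tumors, while Sftpc and Epcam stayed at or below 5.95 CPM and Sftpc was at 0 in vehicle tumor 2. Nkx2-1, the lung lineage factor, lay between 17.7 and 95.4 CPM with vehicle and between 52.2 and 132 CPM with liraglutide, with a log2 fold change of 0.99 (edgeR unadjusted p = 0.0495, adjusted p = 0.52). No batch was given in the labels, and the tumors are separate mice, so the p-values measure the spread between them.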

How the data were processed

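Total RNA from 10 tumors was depleted of ribosomal RNA and sequenced in pairs of reads. According to the study's methods, the authors aligned reads to GRCm39 with TopHat and Bowtie, counted them per gene with featureCounts and left out samples at quality control. The submitters' processing notes list mm10 and GRCh38 instead. The annotation release, strand setting and treatment of reads with several positions are not given in the sources used here. The deposited values were raw counts by Ensembl identifier, of which 51731 (93.4%) matched GENCODE M39, the source of symbols, chromosomes and lengths. Groups came from the sample titles.

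Genes were filtered with filterByExpr, scaled by TMM and tested with edgeR 4.0.16 (quasi-likelihood F test, treatment alone, Benjamini-Hochberg over 17464 genes) in R 4.3.3. CPM used the same scaling, and log2 CPM a prior count of 2. The study used DESeq2, run here as an alternative (1.42.0), as were size factors from DESeq2 within edgeR, limma-voom (version 3.58.1 of limma), library size alone, filters of at least 1 count in all and of at least 10 counts in every tumor, robust empirical Bayes, the tumor number as a block, a prior count of 0.5, Ccl3 and Ccl4 among the T cell ligands, Ptprc as the marker and fits that omitted each tumor. The canonical transcript length, the neutrophil group without Cxcl15 and the fit without 3 keratin-rich tumors were added after seeing the data. Correlations used 100000 permutations, two-sided. Counts of 17464 genes were also simulated for this comparison. There edgeR found 38 of 88 genes given a log2 change of 1, found 100 of 112 given a change of 2, and called 7 unaltered ones. The altered genes were drawn from all tested genes, whose median within-group SD was 0.33, against 0.57 for the ligands. How many ligands with such changes would be found was not simulated.

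The members, groups, marker lists and pairs were chosen with earlier results of these data known. Statistics are given for all tested T cell, monocyte and neutrophil ligands and, of the other ligands, for the 3 higher and 3 lower with the smallest unadjusted p. Values in every tumor are given for the 2 members with the highest mean CPM (not per kb) and the member with the smallest p of these groups, and for Cxcl9, Cxcl10, Ccl5, Ccl2, Cxcl1 and Cxcl12. Of receptors and pathway genes, those with an unadjusted p under 0.05 and the receptors of these groups are named, and Irf1, Nfkb1, Rela, Ackr3, Ccrl2 and the counts of Ifng were added after their values were seen. Some genes of these lists and the engineered alleles of the line are not reported here. Floors of 3 counts cover counting error only.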

Additional observations from a re-analysis of the deposited data

Results flagged for a closer look

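In 27 ligands, each group of 5 tumors was searched for a tumor far from the other 4, by the gap to its nearest neighbor over the whole range on log2 CPM (a limit of 0.71 for 5 tumors). Of 54 such groups 4 held one, where chance at 1 in 20 would give 2.7. Ccl17 was at 0.326 CPM in vehicle tumor 5, below 1.82 to 2.62 CPM in the other vehicle tumors. Ccl22 was at 2.76 CPM in liraglutide tumor 1, below 4.76 to 5.80 CPM in the others. Liraglutide tumor 2 was low in a pair of ligands, with Ccl7 at 2.29 CPM against 4.70 to 5.70 CPM and Cx3cl1 at 50.6 CPM against 77.2 to 85.5 CPM. That tumor also had the highest sum of keratinocyte markers, 200 CPM, whose part in these values was not tested.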

How the results depend on the processing

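The number of ligands with an adjusted p under 0.05 was 0 under every alternative and without each tumor in turn. At an unadjusted p under 0.05 it was 2, and it was 1 with library size alone (9.21% of the genes tested), 1 when every tumor had to hold 10 counts (10.4%), 1 with limma-voom (9.95%) and 1 without the 3 keratin-rich tumors (4.65%), each time Cxcl1. Without 1 tumor it ranged from 1 to 6, with 6 without vehicle tumor 5 (3 higher and 3 lower), where 13.5% of all genes passed against 9.59% with all tumors, 3 without vehicle tumor 1 (Ccl6, Ccl9 and Cxcl1, all lower, against 6.74% of genes), and Cxcl1 alone without vehicle tumor 2 (5.86%) or liraglutide tumor 1, 3 or 5 (8.43%, 6.02% and 5.2%). Without vehicle tumor 3 it was 2 (Cxcl14 higher and Cxcl1 lower, 8.03%), without vehicle tumor 4 it was 2 (Cxcl15 higher and Cxcl1 lower, 15.2%), and the cause was not tested. Same-numbered tumors came from different mice, and after subtraction of group means their correlations were 0.354, 0.565, -0.0753, 0.0681 and 0.389, over 0.1 in 3 of 5 pairs, where all 5 were required for the numbers to be taken as pairs, and 3 of 10 tumors correlated best with their own number. With the replicate block, 7 ligands passed the unadjusted 0.05, 6 of them higher (Cxcl9, Cxcl10, Cx3cl1, Cxcl15, Cxcl16 and Cxcl17) and Cxcl1 lower, where 14.8% of all genes passed (7.5% higher and 7.31% lower), and 7 receptors and pathway genes against 2 without it. The log2 fold changes of Cxcl9, Cxcl10 and Cxcl15 were 1.24, 1.24 and 2.57 with the block and 1.25, 1.27 and 2.67 with limma-voom. The neutrophil median of -0.53 was -1.19 in the fit without the 3 keratin-rich tumors, which kept only liraglutide tumors 1 and 3. That fit also turned the sign of Cxcl11 to -0.77, Ccl8 to 0.12 and Cxcl17 to -0.08. Leaving out 1 tumor gave T cell medians from 0.22 to 0.74, monocyte medians from -0.27 to 0.13 and neutrophil medians from -0.78 to -0.23, and turned the sign of Cxcl11 (-0.24 to 0.74), Ccl4 (-0.21 to 0.43), Ccl8 (-0.27 to 0.13) and Cxcl5 (-0.82 to 0.06). Of the ligands whose sign held, moves by over 1.5 times without 1 tumor included Cxcl16 (0.22 without vehicle tumor 2 to 0.55 without vehicle tumor 4), Ccl3 (0.25 without vehicle tumor 1 to 0.87 without vehicle tumor 5), Cxcl2 (-1.24 without liraglutide tumor 4 to -0.54 without vehicle tumor 2), Cxcl3 (-0.56 and -0.05 without liraglutide tumors 4 and 5), Ccl27a (0.11 and 0.45 without vehicle tumors 3 and 4) and Cx3cl1 (0.28 and 0.67 without vehicle tumors 2 and 5). Such moves were also seen in Ccl2 (0.21 to 0.5), Ccl6 (-0.5 to -0.16), Ccl7 (-0.62 to -0.3), Ccl9 (-0.64 to -0.26), Ccl11 (-0.69 to -0.23), Ccl12 (-0.33 to -0.0) and Ccl22 (-0.3 to -0.08). With Ptprc as the marker, r turned to -0.19 for Ccl7, -0.479 for Cxcl2 and -0.0651 for Cxcl12. For Cxcl1 it moved from -0.22 to -0.661 (permutation test, adjusted p = 0.104), with rho of -0.309, and for Cxcl5 from -0.337 to -0.514. For Ccl2 r moved from 0.11 to 0.2 and for Ccl27a from 0.174 to 0.339. Over 26 named ligands, 222 of 225 log2 fold changes under other settings and 247 of 260 without 1 tumor kept their sign. At this depth, ligands with few reads such as Ccl17, Ccl4 and Cxcl3 allow wide intervals.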

Other observations

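Markers of other cell types that make or answer chemokines were measured beside the ligands, and with edgeR's adjusted p 0 of these were called. The natural killer cell markers Ncr1, Klrb1c, Klre1 and Klrk1 summed to between 1.82 and 7.66 CPM with vehicle and between 1.73 and 8.71 CPM with liraglutide. Dendritic cell markers (Flt3, Zbtb46, Clec9a and Ccr7), of a cell type that secretes Ccl17 and Ccl22, had a median log2 fold change of -0.16, and Xcr1, the receptor of Xcl1 on cross-presenting dendritic cells, was at -0.25 with a standard error of 0.75. B cell markers were too low to be tested, with at most 1.84 CPM summed in a tumor. Fibroblast markers ranged from 1370 to 3510 CPM and endothelial markers from 83.6 to 133 CPM over the 10 tumors. Vehicle tumors 4 and 5, with the least fibroblast RNA, were also the vehicle tumors with the most Cxcl9 and the least Cxcl12. With liraglutide, tumor 1 had the most fibroblast RNA (3510 CPM) but the least Cxcl9 (92.9 CPM) and Cxcl12 (6.48 CPM). Liraglutide tumor 5, at 3200 CPM of fibroblast RNA, had the most Cxcl9 (302 CPM) and Cxcl12 (16.4 CPM) of its group. These rankings were noted after the values were seen. Il6, with 4 to 39 counts per tumor, did not pass the filter on low counts, and lay between 0.753 and 3.95 CPM with vehicle and between 0.346 and 0.67 CPM with liraglutide, so that the 5 liraglutide tumors were below all vehicle tumors. In 1.49% of tested genes the groups likewise did not overlap. When all genes with at least 1 count were tested, Il6, a cytokine that induces acute-phase responses, had a log2 fold change of -1.59 and an adjusted p of 0.62 (edgeR), and it was singled out after its values were seen.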
